A study of Macaca radiata with 4 samples.

Results

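The Wnt signalling genes measured here were 61 genes of the 14132 that had a probe set with 1 gene symbol on a rhesus macaque expression array. Their symbols were matched to a list of gene families, namely Wnt ligands, their processing enzyme PORCN, R-spondins, secreted antagonists, Frizzled and other receptors, destruction complex and casein kinase 1 genes, and TCF and TLE factors. Each gene was represented by the probe set with the highest mean log2 signal, and 116 probe sets covered the 61 genes. Of these genes 44 lay above the filter on low signal (a signal of 90.7) and entered the test, among 10998 genes in all. Symbols of the same families with no matched probe set, among them CTNNB1 (beta-catenin itself), LEF1, AXIN1, RYK, DVL1 and FZD2, were not analysed here.

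The tissue was the corpus luteum of female bonnet monkeys, Macaca radiata, the gland that forms from the ovulated follicle and secretes progesterone. On luteal day 7 every animal had been dosed with CET (150 µg/kg), an agent that the labels describe as inhibiting the animal's own LH secretion. After 24 h they received PBS or rhLH, a recombinant luteinizing hormone, at 20 IU/kg, and the gland was taken 8 h later. The labels give n = 2 for each treatment without naming the animal behind an array. Every group thus carries the CET treatment, no untreated gland is among these 4 arrays, and the comparison is LH replacement against continued withdrawal.

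Wnt ligands are lipid-modified secreted proteins that bind Frizzled receptors. With the co-receptors LRP5 or LRP6 they stop a complex of AXIN, APC, GSK3 and casein kinase 1 from destroying beta-catenin, which then acts with TCF and LEF factors in the nucleus. Ligands such as WNT5A and WNT11 more often act without beta-catenin, through ROR receptors, planar polarity proteins or calcium. SFRP proteins bind ligands outside the cell, DKK proteins block LRP5 and LRP6, and TLE proteins repress TCF targets. In the ovary, Wnt signals act from gonad formation onwards, and mice without the receptor FZD4 form defective corpora lutea.

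One array stood apart. PBS replicate 1 correlated with the other 3 arrays at 0.752 to 0.780 over all kept probe sets (Pearson r), whereas each of the others reached 0.947 with at least 1 array. Its ratio of 3' to 5' signal was 11.2 for the actin control probe sets and 2.99 for GAPDH, against 1.49 to 1.59 and 1.40 to 1.88 on the others. Such a ratio is a common sign of RNA quality, and its part in the results was not tested. Differences are therefore also given against each PBS array by itself. Signals of luteal cell genes were high on every array (STAR from 24283 to 54566, HSD3B2 from 25500 to 38138). LHCGR, the LH receptor, was not matched. The summed signal of 6 steroidogenic markers was 82072 and 174918 with PBS and 168500 and 185910 with rhLH. Some marker lists of other cell types stood higher on both rhLH arrays, namely 4 pericyte and smooth muscle genes (4943 and 8122 against 9471 and 8666), 3 T and NK cell genes (4737 and 11059 against 16061 and 16130) and 4 epithelial and granulosa genes (1243 and 2530 against 2925 and 2914). GZMB made up most of the T and NK cell sum. The smooth muscle sum stood higher through TAGLN (2668 and 2568 against 6118 and 6561), while MYH11, LMOD1 and CNN1 overlapped, with log2 differences of −0.65, −0.43 and 1.08. Of the epithelial and granulosa genes KRT18 stood higher on both rhLH arrays, while KRT19 (1.51), UPK3B (−0.94) and AMH (−0.48) overlapped. The sums of endothelial, fibroblast, macrophage and red cell markers overlapped between the groups. Among the markers ACTA2, DES, RGS5, PDGFRB, CD3D, CD3E, CD2 and FSHR were not matched. No matched marker list was at 0, and the part of cell composition in the results was not tested. In a whole gland, fewer cells of a type and less RNA per cell cannot be told apart.

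No Wnt gene passed the limma test, and no gene of the whole array did. The adjusted p-values of the 44 tested genes lay between 0.919 and 0.999 (limma, Benjamini-Hochberg over all 31659 kept probe sets). Without PBS replicate 2, which left the array that stood apart as the only PBS array, 10 Wnt genes and 8169 probe sets passed, and without any other array 0 did. At an unadjusted p under 0.05, 2 Wnt genes stood higher with rhLH (WNT5A and SFRP4) and 1 stood lower (WNT5B), where the shares over all genes were 1.0% and 0.9%. WNT5B passed the filter only through its PBS arrays. The arrays of both groups did not overlap for 20 of the 44 genes. Of these, 7 lay above both PBS arrays, or 15.9%, against a background of 16.3% of all genes, and 13 lay below both PBS arrays, or 29.5%, against 16.1%. Centring each array on its median shifted the median of all genes by 0.23 on the log2 scale and made the split 9 above and 9 below, against backgrounds of 25.8% and 9.48%. The median log2 difference of the 44 genes, rhLH minus PBS, was −0.03, and that of all genes was 0.02. Against PBS replicate 1 alone the median of the Wnt genes was −0.08, and against PBS replicate 2 alone it was −0.16. The share near background on the higher side shows nothing particular about the Wnt genes, and the larger share on the lower side was not tested.

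**Figure D1:**
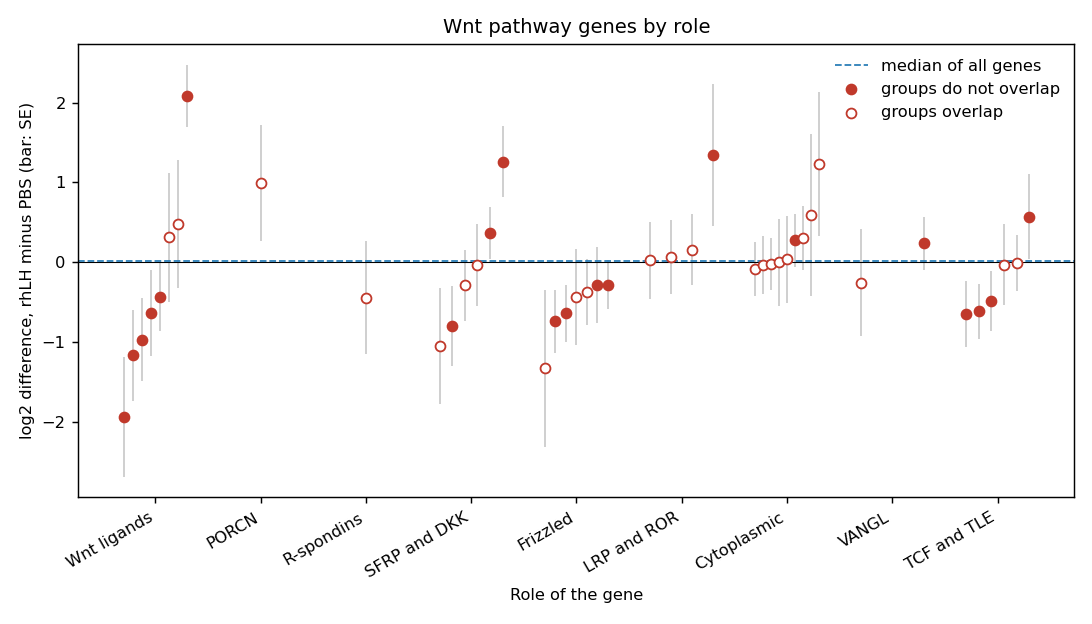
Log2 difference in signal, rhLH minus PBS, of the 44 tested Wnt pathway genes by role, 1 point a gene, with the limma standard error as a bar. The dashed line is the median of all 10998 genes (0.02). Filled points are genes whose 2 rhLH arrays lie wholly above or below the 2 PBS arrays. WNT5A is the highest point at 2.08 and WNT5B the lowest at −1.94, and all 7 Frizzled genes lie below 0. WNT5B passed the filter only through its PBS arrays.

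The share of genes below both PBS arrays depended on signal level. When all genes were divided into 3 equal classes by mean signal, 20.5% lay below both PBS arrays in the lowest class, 16.7% in the middle class and 10.97% in the highest. Of the Wnt genes 6 of 21 (28.6%) lay below in the lowest class, 6 of 14 (42.9%) in the middle class and 1 of 9 (11.1%) in the highest. Above both PBS arrays lay 2 (9.52%), 2 (14.3%) and 3 (33.3%) of the Wnt genes in these classes, against 11.4%, 16.3% and 21.1% of all genes.

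WNT5A, a ligand that mostly acts without beta-catenin, differed most among the ligands. Its signal was 1405 and 941 on PBS replicates 1 and 2 and 3880 and 6269 on rhLH replicates 3 and 4. Both rhLH arrays thus lay above both PBS arrays, by at least 2-fold for every pair of arrays, which 0.318% of all genes did on the higher side and no other Wnt gene did. With the median over its probe sets WNT5A no longer met that rule, and the log2 difference was 1.45. On the lower side 0 Wnt genes met it, against 0.336% of all genes. From a PBS mean of 1173 ± 328 (SD, n = 2) to an rhLH mean of 5075 ± 1689 (SD, n = 2) is a log2 difference of 2.08 (SE 0.39, limma adjusted p = 0.919). Taken from PBS replicate 1 alone it came to 1.80, and from PBS replicate 2 alone to 2.37. Both further WNT5A probe sets gave the same order of groups. The second had signals of 477 and 377 with PBS and 925 and 1526 with rhLH (log2 difference 1.45), and the third had 319 and 175 against 553 and 1257 (1.75). On all 3 probe sets, rhLH replicate 4 was the higher of the rhLH arrays and PBS replicate 2 the lower of the PBS arrays.

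WNT5B, the close relative of WNT5A, stood on the opposite side on its brightest probe set. Its signals were 278 and 198 with PBS and 21.1 and 98.9 with rhLH, the first rhLH value below the filter level. Its mean with rhLH was under the filter level, so WNT5B passed the filter only through its PBS arrays. The log2 difference was −1.94 (SE 0.75, limma adjusted p = 0.919), with −2.17 and −1.71 against the 2 PBS arrays. Leaving out rhLH replicate 3 moved it to −1.13 and leaving out rhLH replicate 4 to −2.76, so its size depended on which rhLH array was used. A dimmer WNT5B probe set, under the filter, read 57.1 and 29.0 with PBS and 71.8 and 158 with rhLH, the reverse order.

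WNT11, which acts in planar polarity, had signals of 314 and 210 with PBS and 137 and 110 with rhLH. Its log2 difference was −0.97 (SE 0.52), with −1.25 for PBS replicate 1 and −0.70 for PBS replicate 2. WNT3, a ligand of the beta-catenin branch, read 678 and 280 against 156 and 221, a difference of −1.17 (SE 0.57), or −1.78 when only PBS replicate 1 was used and −0.55 when only the other was. The second WNT3 probe set read 46.6 and 155 with PBS and 114 and 165 with rhLH, so the groups overlapped and its difference was 0.57. WNT2B, also linked to beta-catenin, read 204 and 158 against 105 and 114 on its brightest probe set (−0.64, SE 0.53). On its second probe set it read 60.9 and 83.9 against 165 and 195, a difference of 1.16 (SE 0.57) from PBS values under the filter level. Both WNT2B probe sets separated the groups, in opposite directions, so no direction can be given for that gene. WNT10B read 782 and 460 against 435 and 443, where the distance to PBS replicate 2 was only −0.06 on the log2 scale.

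For the remaining ligands the groups overlapped or the signal was low. WNT7A (185 and 37.6 with PBS, 108 and 117 with rhLH) and WNT8B (177 and 35.9 against 119 and 128) lay between the PBS arrays. Of 17 ligands 8 passed the filter, of which 5 had both rhLH arrays under both PBS arrays and 1, WNT5A, had them over, where the shares over all genes were 16.1% and 16.3%. The ligands under the filter were WNT1, WNT2, WNT4, WNT6, WNT7B, WNT8A, WNT9B, WNT10A and WNT16. WNT4, which supports ovary development, had signals of 13.8 and 24.4 with PBS and 28.0 and 9.45 with rhLH. WNT2 read 105 and 20.4 against 97.5 and 83.5. Whether these probe sets detect any transcript cannot be told without detection calls, so no fold is given. PORCN, which attaches the lipid that Wnt ligands need for release, read 135 and 521 with PBS and 800 and 379 with rhLH, with the groups overlapping.

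**Figure D2:**
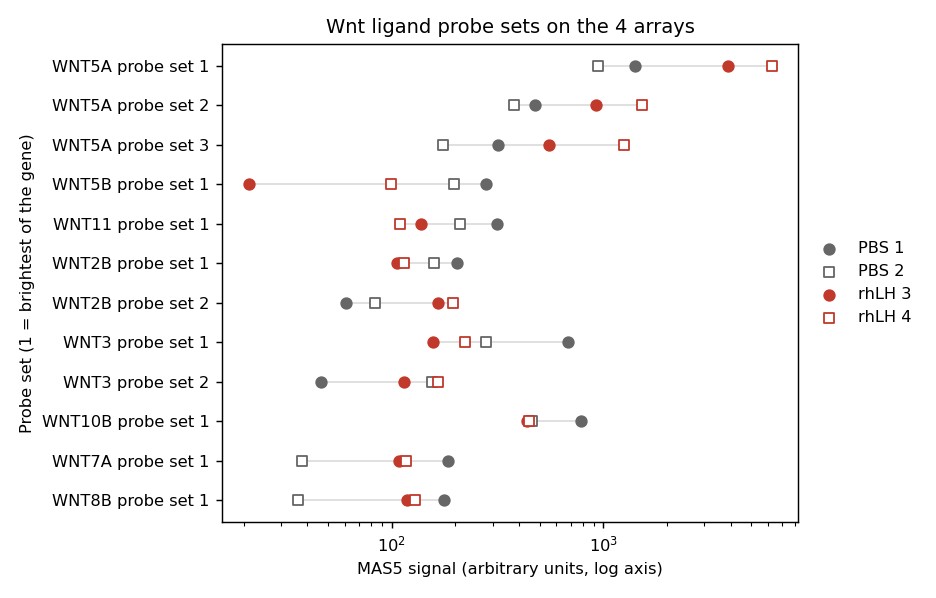
MAS5 signal (log axis) of the 12 kept probe sets of 8 Wnt ligands on each array, with PBS in grey and rhLH in red. Circles are PBS 1 and rhLH 3, and squares are PBS 2 and rhLH 4. The 3 WNT5A probe sets have both rhLH points to the right of both PBS points, and the 2 WNT2B probe sets run in opposite directions.

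The secreted antagonists showed no common direction. SFRP4, a frizzled-related protein known from the rodent corpus luteum, had signals of 474 and 767 with PBS and 1974 and 1092 with rhLH. Both rhLH arrays lay above both PBS arrays, and the log2 difference was 1.26 (SE 0.45, limma adjusted p = 0.919), or 1.60 and 0.92 against the 2 PBS arrays. The second SFRP4 probe set read 524 and 677 with PBS and 1010 and 706 with rhLH (0.49). The third read 566 and 380 against 531 and 686, where the groups overlapped (0.37). On the fourth the values were 80.3 and 126 against 170 and 162 (0.64). All 4 probe sets therefore had positive differences against each PBS array, and 3 of them separated the groups, but the sizes ran from 0.37 to 1.26.

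DKK1, which blocks LRP5 and LRP6, read 346 and 227 with PBS and 142 and 168 with rhLH. Both rhLH arrays were below both PBS arrays, with a log2 difference of −0.80 (SE 0.50), or −1.09 and −0.51 against the 2 PBS arrays. DKK2, a relative that can also activate LRP6, read 836 and 199 against 214 and 169, so only PBS replicate 1 stood away from the rest and the difference against PBS replicate 2 was −0.06. The second DKK2 probe set read 197 and 155 against 121 and 62.9, separating the groups by −0.87, with a mean log2 signal under the filter level with rhLH. DKK3, the divergent family member that does not bind LRP6 as DKK1 does, read 6268 and 7937 with PBS and 9441 and 8763 with rhLH, a difference of 0.37 (SE 0.33). Its second probe set (1677 and 1603 against 2239 and 2141) also separated the groups, by 0.41, while the other 4 did not.

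SFRP1 and SFRP2 varied more between the arrays of a group than between groups. SFRP1 read 993 and 1519 with PBS and 1868 and 766 with rhLH, so the rhLH arrays lay on either side of the PBS arrays (log2 difference −0.04, SE 0.51). SFRP2 read 3440 and 6311 against 4936 and 2945 (−0.29, SE 0.45). In both genes rhLH replicate 3 was above rhLH replicate 4, as it was for the brightest SFRP4 probe set. DKK4, SFRP5 and WIF1 were under the filter. The R-spondin RSPO1, which strengthens Wnt signals through LGR receptors, read 121 and 165 with PBS and 175 and 54.2 with rhLH, and RSPO3 (103 and 68.4 against 66.8 and 98.7) and RSPO2 were under the filter.

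**Figure D3:**
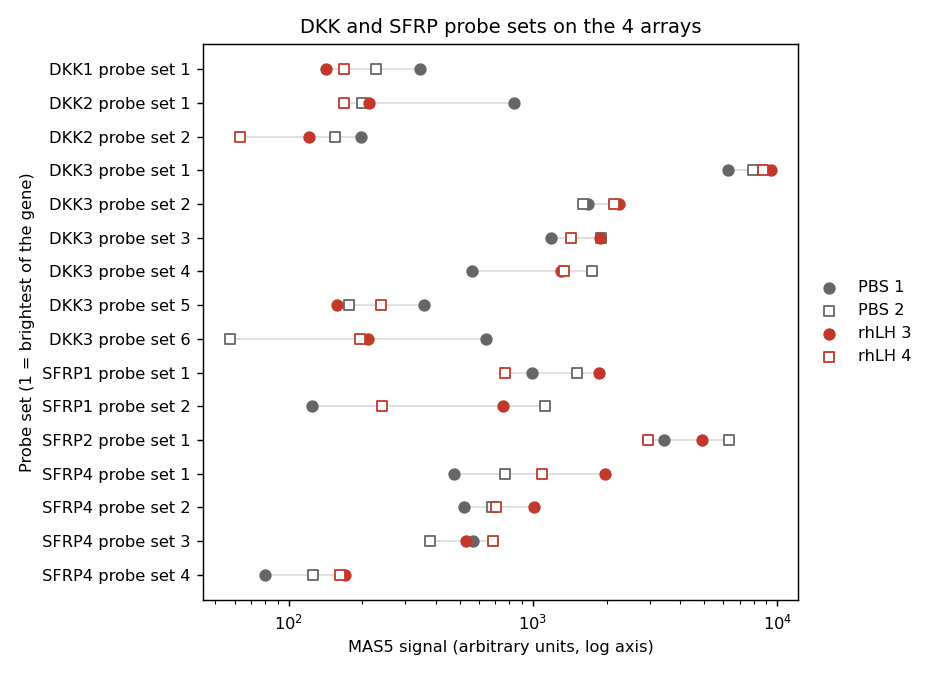
MAS5 signal (log axis) of the 16 kept probe sets of DKK and SFRP genes on each array, PBS in grey and rhLH in red, with circles for PBS 1 and rhLH 3 and squares for PBS 2 and rhLH 4. The 4 SFRP4 probe sets have rhLH points mostly to the right, DKK1 has them to the left, and SFRP1 and SFRP2 are interleaved.

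The Frizzled receptors lay on 1 side. All 7 tested Frizzled genes had negative differences, whichever PBS array the rhLH mean was set against, with a median log2 difference of −0.44 and a range from −1.33 to −0.29. Of all genes 51.4% had a positive difference. For 4 of the 7 (FZD1, FZD4, FZD5 and FZD6) both rhLH arrays lay below both PBS arrays, a state found in 16.1% of all genes. None reached an unadjusted p under 0.05 by limma, none passed the adjusted test, and no test of the family was made. All 7 differences stayed negative after quantile normalization (−1.25 to −0.07) and after centring on the array medians (−1.10 to −0.06), where 1 gene instead of 4 separated the groups.

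FZD1, a receptor whose transcript is LH-responsive in rodent ovary, read 1119 and 1148 with PBS and 596 and 872 with rhLH. The log2 difference was −0.64 (SE 0.36, limma adjusted p = 0.919), −0.62 and −0.66 against the 2 PBS arrays. The second FZD1 probe set read 1157 and 673 against 532 and 561 (−0.68), and the fourth read 147 and 212 against 51.9 and 116 (−1.02). The third read 359 and 256 against 168 and 293, where the groups overlapped (−0.42). All 4 FZD1 differences were negative, and both probe sets with the highest signal separated the groups. The fourth passed the filter only through its PBS arrays, since its mean with rhLH was under the filter level.

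FZD6, which is known for planar polarity and for restraining beta-catenin signals, read 1648 and 996 with PBS and 671 and 863 with rhLH. The log2 difference was −0.74 (SE 0.39), with −1.10 and −0.38 against the 2 PBS arrays. FZD4 read 2842 and 2597 against 2023 and 2450, the groups separated by a small margin (−0.29, SE 0.31). FZD5 read 222 and 210 against 178 and 172 (−0.29), and its second probe set 274 and 140 against 27.7 and 99.6 (−1.58). That second probe set passed the filter only through its PBS arrays, since its mean with rhLH was under the filter level. FZD7 overlapped between the groups on its brightest probe set (502 and 773 with PBS, 549 and 411 with rhLH) and was separated on its second (452 and 649 against 361 and 386, −0.52). FZD8 (730 and 122 against 56.6 and 208) and FZD10 (203 and 105 against 114 and 95.0) stood high on PBS replicate 1 alone, and against PBS replicate 2 their differences were −0.11 and −0.02. FZD3 and FZD9 were under the filter.

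**Figure D4:**
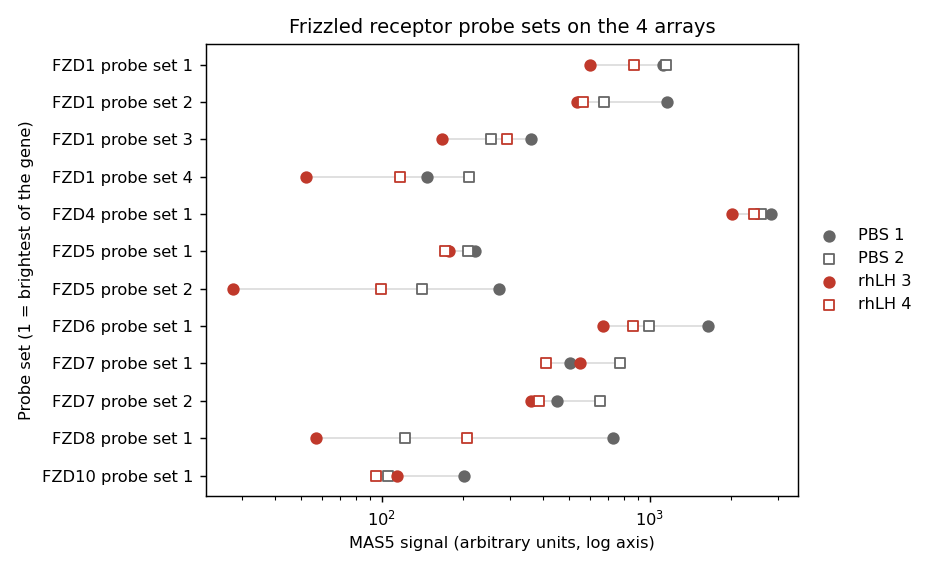
MAS5 signal (log axis) of the 12 kept probe sets of 7 Frizzled receptor genes on each array, PBS in grey and rhLH in red, with circles for PBS 1 and rhLH 3 and squares for PBS 2 and rhLH 4. The rhLH points lie mostly to the left, as in the 4 FZD1 probe sets (differences from −1.02 to −0.42), while FZD8 and FZD10 are set apart by PBS 1 alone. The fourth FZD1 probe set (−1.02) and the second of FZD5 passed the filter only through their PBS arrays.

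The pooled differences of the co-receptors were positive, but not against each PBS array. LRP5 read 23.0 and 192 with PBS and 201 and 226 with rhLH, so its log2 difference of 1.35 (SE 0.89) came from PBS replicate 1 (2.55), with 0.14 against PBS replicate 2. Its mean log2 signal with PBS was under the filter level, so LRP5 passed the filter only through its rhLH arrays. LRP6 read 281 and 567 against 386 and 428 on its brightest probe set (0.02, SE 0.48) and 330 and 174 against 485 and 443 on its second, which separated the groups (0.90, SE 0.48). ROR2, a receptor for WNT5A, read 198 and 272 with PBS and 240 and 246 with rhLH (0.06, SE 0.46). Its relative ROR1 read 238 and 275 against 261 and 317 (0.16). Against PBS replicate 2 the median of the 4 genes was −0.046, with LRP6 at −0.46 and ROR2 at −0.15 below it. Of the 4 genes 1 (25.0%), LRP5, lay above both PBS arrays, against 16.3% of all genes. That separation rests on a gene that passed the filter only through its rhLH arrays. No difference between the co-receptors and the Frizzled genes was tested.

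In the destruction complex the groups overlapped for APC, AXIN2, GSK3A and GSK3B. APC, the scaffold that holds beta-catenin, read 612 and 613 with PBS and 526 and 682 with rhLH (log2 difference −0.03, SE 0.36), and its other probe sets stood at −0.13 and 0.07. GSK3B, the kinase that marks beta-catenin for destruction, read 525 and 1451 against 744 and 1026, a pooled difference near 0 that came to 0.72 from PBS replicate 1 and −0.72 with the other PBS array. AXIN2, both a scaffold and a classical target of beta-catenin, read 116 and 165 against 157 and 129 (0.03, SE 0.55). GSK3A read 2611 and 3514 against 3220 and 2755 (−0.02). These 4 genes have standard errors of 0.33 to 0.55.

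CSNK1E, DVL2 and CSNK1A1 had their lowest signal on PBS replicate 1. CSNK1E read 54.4 with PBS replicate 1 and 442 with PBS replicate 2, against 444 and 372 with rhLH. DVL2, which relays the signal from Frizzled, read 34.8 and 351 with PBS and 274 and 130 with rhLH. CSNK1A1, which primes beta-catenin for GSK3, read 1665 and 3087 against 3107 and 2537. Against PBS replicate 2 the differences of these genes were −0.11, −0.83 and −0.14, and against PBS replicate 1 they were 2.59, 2.02 and 0.75. The second CSNK1E probe set read 39.8 and 117 against 353 and 269 (1.91), from a PBS mean under the filter level, and lay at least 2-fold above both PBS arrays, as 0.344% of all kept probe sets did. CSNK1G2 separated the groups on its brightest probe set, at 2417 and 1680 with PBS and 2465 and 2423 with rhLH, but by only 0.016 from PBS replicate 1. Its 4 kept probe sets had pooled differences of 0.26 to 1.91, while against PBS replicate 2 they stood at 0.54, −0.09, 0.09 and −0.44. CSNK1G3 read 1870 and 1297 against 1404 and 1532 and overlapped on its brightest probe set. Its second, almost as bright, separated the groups at 942 and 1501 against 1798 and 1664 (0.53).

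Among 6 nuclear factors, 3 genes (50.0%) lay below both PBS arrays and 1 (16.7%) above, where the shares over all genes were 16.1% and 16.3%. The share on the lower side rests on few genes and was not tested. TLE3, a co-repressor of TCF factors, had close replicates, at 799 and 770 with PBS and 517 and 494 with rhLH. Its log2 difference was −0.62 (SE 0.345, limma adjusted p = 0.919), −0.64 and −0.59 against the 2 PBS arrays, but its further kept probe sets overlapped, at −0.19 and 0.23. TLE1 read 818 and 648 against 589 and 449 (−0.49), and a second TLE1 probe set also separated the groups (−0.29), while the third did not (0.38). TCF7L2, the TCF factor of many epithelia, read 1738 and 990 against 975 and 707 (−0.65, SE 0.41), with −1.05 for PBS replicate 1 and −0.25 for PBS replicate 2. Its second probe set read 1007 and 1058 against 1096 and 971, a difference of 0.00, and the other kept ones ranged to 0.36. TLE2 lay above both PBS arrays (112 and 213 against 248 and 230), and its log2 difference from PBS replicate 2 was 0.15. TCF7 and TCF7L1 overlapped, with differences of −0.03 and −0.01. Of the polarity proteins VANGL1 read 896 and 978 against 989 and 1238 (0.24), with a second probe set of the opposite order (−0.36), and VANGL2 overlapped.

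**Figure D5:**
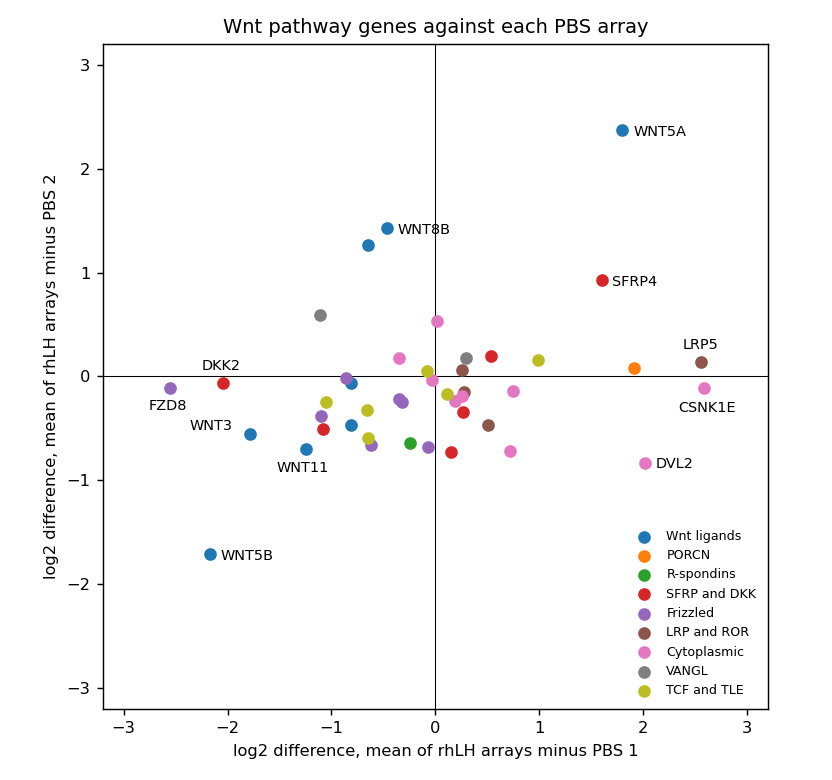
Log2 difference of the mean of the rhLH arrays from PBS 1 (horizontal) and from PBS 2 (vertical) for the 44 tested Wnt pathway genes, coloured by role. Both axes share the rhLH arrays. WNT5A (1.80 and 2.37) and WNT5B (−2.17 and −1.71) lie far from 0 on both axes, whereas LRP5, CSNK1E, DVL2, DKK2 and FZD8 lie far from 0 mainly on the PBS 1 axis. WNT5B passed the filter only through its PBS arrays and LRP5 only through its rhLH arrays.

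The distance to PBS replicate 1 was larger than that to PBS replicate 2 for many members. The mean of the rhLH arrays stood 2-fold or more from PBS replicate 1 in 15 of the 44 genes (34.1%, against 30.5% of all genes). From PBS replicate 2 it stood that far in 4 genes (9.09%, against 4.72%). Only WNT5A and WNT5B did so against both, in the same direction, and WNT5B passed the filter only through its PBS arrays. For 16 of the 44 genes the sign differed between the PBS arrays. The median gap between the rhLH arrays was 0.28 on the log2 scale over the Wnt genes, and between the PBS arrays it was 0.59. The 5 genes with the widest gap between the rhLH arrays were WNT5B (1.63), FZD8 (1.62), RSPO1 (1.45), SFRP1 (1.27) and PORCN (1.05).

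Several probe sets of a gene did not always point the same way. Of the 20 Wnt genes with 2 or more kept probe sets, 9 had every probe set on 1 side (45.0%), against 50.2% of the 4433 such genes on the array. These 9 were WNT5A, SFRP4, CSNK1E, CSNK1G2 and LRP6 on the higher side and FZD1, FZD5, FZD7 and DKK2 on the lower side. Some of their probe sets passed the filter only through the higher group, among them the fourth of FZD1 and the second of FZD5, DKK2 and CSNK1E.

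Genes of the pathway outside these families were read from a list of 104 genes, 81 of which were matched and 71 kept. By limma 0 of them passed the adjusted test and 1 had an unadjusted p under 0.05. Both rhLH arrays exceeded both PBS arrays for 12 of them (16.9%) and were under both for 17 (23.9%), against 16.3% and 16.1% of all genes, with a median log2 difference of −0.02. NKD2, which binds Dishevelled and restrains Wnt signals, read 32.0 and 64.8 with PBS, both below the filter level, and 240 and 252 with rhLH. It passed the filter only through its rhLH arrays, so no fold is given (limma adjusted p = 0.919). TNKS2, which promotes the breakdown of AXIN, read 2266 and 1807 against 1489 and 1193 (−0.60). In the control of beta-catenin breakdown as a whole, 3 of 13 genes (23.1%) lay above and 2 (15.4%) below, against 16.3% and 16.1% of all genes.

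Of 14 beta-catenin targets 2 (14.3%) lay above both PBS arrays and 2 below, near the shares of all genes (16.3% and 16.1%). MYC, a growth regulator, read 909 and 1614 with PBS and 582 and 630 with rhLH (log2 difference −0.98, SE 0.40). FGF9, a growth factor, read 329 and 486 against 581 and 1170 (1.02, SE 0.48). Of 6 genes of ligand release and extracellular control, 0 lay above both PBS arrays and 1 (16.7%) below, beside the same shares over all genes. NOTUM, which removes the lipid from Wnt ligands and is itself a target, read 47.2 and 165 against 240 and 163, with the groups overlapping, and the glypican GPC3 read 1868 and 1649 against 1076 and 1560 (−0.43). LGR5, an R-spondin receptor, read 319 and 207 against 168 and 128 (−0.75), and LGR4 overlapped (1897 and 578 against 844 and 522).

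In the polarity and calcium branches the rhLH arrays were both above PBS for 4 of 21 genes (19.0%) and both below for 6 (28.6%). Over all genes the shares were 16.3% and 16.1%. CAMK2D, a calcium-activated kinase, read 2657 and 2021 with PBS and 947 and 1689 with rhLH (log2 difference −0.87, SE 0.40). DAAM2, a formin that links Dishevelled to the actin skeleton, read 1356 and 1008 against 616 and 817 (−0.71, SE 0.36). Of the nuclear cofactors 2 of 11 (18.2%) lay above and 3 (27.3%) below, beside the same shares over all genes. TBL1X, which exchanges cofactors at TCF targets, read 1134 and 1784 against 2412 and 2006 (0.62), and the acetyltransferase EP300 read 4479 and 1395 against 1434 and 1280, set apart by PBS replicate 1. In the cadherin complex 1 of 4 genes (25.0%) lay above and 2 (50.0%) below, against 16.3% and 16.1% of all genes. Those below were CDH3 (657 and 666 against 435 and 239, −0.997 on the log2 scale) and CTNND1 (1787 and 1478 against 1224 and 1414, −0.30).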

How the data were processed

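Corpus luteum RNA was measured on 4 Affymetrix rhesus arrays, 2 with PBS and 2 with rhLH. The deposited values are probe set intensities on a linear scale, which are MAS5 signals per the submitters' processing notes and the labels. Scaling target, detection calls and array dates: not given in the sources used here. The 2% trimmed means were equal (500.0), so no further normalization was applied. Of 52865 probe sets 99 controls were set aside. Signals were used as log2(signal + 16), which understates the change of dim probe sets, and those above the 40th percentile of mean log2 were kept. Groups were compared with limma 3.58.1 in R 4.3.3 (lmFit, eBayes with trend, two-sided, adjusted p threshold 0.05), and the script was tested on simulated data. Each SD is over 2 arrays.

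Symbols came from the platform annotation, of which 24956 probe sets had 1 symbol. Bonnet monkey mismatches to the probes were not examined. The labels give n = 2 a group but tie no array to an animal, so p-values measure only how much these arrays vary, which may be technical. An exact permutation test of 2 against 2 arrays could not go below p = 0.333. Members, lists and tests were chosen with earlier results of these data known. Values on every array are given for genes at least 2-fold apart on every pair of arrays, the 12 lowest limma p-values and 26 panel genes, of which 22 were matched. Related genes are named by smallest p, up to 2 per role, and any further gene was picked with its values in view. Alternatives covered scaling, pseudocount, filter, variance model, probe set choice and leaving out each array.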

Additional observations from a re-analysis of the deposited data

How the results depend on the processing

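No paired analysis was possible because the groups share no replicate number. The number of arrays limits the precision of every value, and signal near background limits 17 of the 61 genes, which were not tested. Leaving out PBS replicate 2 gave 8169 adjusted calls over all probe sets, 10 among the Wnt genes and 14 among the related genes, and leaving out any other array gave 0. Without PBS replicate 2 the share of Wnt genes called was not above that of all kept probe sets, so these calls show nothing particular about them. There the lone PBS array is assumed to vary like the others, and it is the array that stood apart. Over the 4 omissions the median of all kept probe sets ran from −0.12 to −0.016, that of the Wnt genes from −0.16 to −0.077, that of the ligands from −0.81 to −0.27, that of the Frizzled genes from −0.62 to −0.25 and that of the related genes from −0.061 to 0.048. Counts above every PBS array left in the run went from 9 to 17 for the Wnt genes and from 16 to 30 for the related genes. Counts below every PBS array left went from 16 to 22 for the Wnt genes and 23 to 34 for the related genes. For ligands they went from 5 to 7 and for Frizzled genes from 5 to 6. For runs without an rhLH array no share over all genes is given. Of all genes 43.5% lay above PBS replicate 1 alone and 34.7% above PBS replicate 2 alone (43.5% and 34.1% below), where the Wnt genes numbered 17 and 12 above and 21 and 22 below. The 2-fold rule gave 1 to 6 Wnt genes higher and 0 to 6 lower, and fewer arrays to separate raise such counts by construction.

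Centring the arrays moved the median of all kept probe sets to 0.19, of the Wnt genes to 0.19 and of the related genes to 0.21. There 19 related genes lay above and 1 Frizzled gene below, where 25.8% of all genes lay above and 9.48% below. Quantile normalization moved the median of all kept probe sets to 0.044. With the filter at the 70th percentile that median was 0.062. There 7 of 23 Wnt genes and 1 of 2 ligands (median 0.82) lay below both PBS arrays, and 7 of 48 related genes lay above. Of the 4 Frizzled genes left, 4 had negative differences and 3 lay below both PBS arrays. With the median over a gene's probe sets the 2-fold rule gave 0 Wnt genes higher, since WNT5A (1.45) no longer met it, and the ligand median was −0.019. The second brightest probe set, which fewer genes have, gave 6 of 20 Wnt genes below (median 0.078), 3 of 3 Frizzled genes negative, 0 of 3 ligands below (median 1.16), and 5 above and 7 below of 38 related genes. The cause of these moves, beyond the number of genes, was not tested. No share over all genes is given for the filter and probe set choice runs, and such shares depended on signal level. The counts from those runs therefore show nothing particular about the Wnt or related genes.

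Of 23 named genes 12 kept their side in every alternative run that held a value for them, and 11 did not. Not every gene had a value in every run. WNT5B is among the 12, but its dimmer probe set, of the reverse order, was under the filter and did not enter. Signs turned under quantile normalization for APC (0.024) and GSK3B (0.084), on centring for APC (0.20), GSK3B (0.23) and SFRP1 (0.19), and with a pseudocount of 1 for GSK3B (0.0012). Leaving out 1 array at a time gave both signs for APC (−0.21 to 0.15), AXIN2 (−0.19 to 0.26), GSK3B (−0.72 to 0.72), LRP6 (−0.46 to 0.51), ROR2 (−0.15 to 0.27), RSPO1 (−1.17 to 0.28), SFRP1 (−0.67 to 0.60) and SFRP2 (−0.72 to 0.15). Over a gene's probe sets they turned for SFRP1 (0.061), TCF7L2 (0.17) and WNT2B (0.26), and on the second probe set for SFRP1 (0.16), WNT2B (1.16) and WNT3 (0.57).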

Other observations

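Further probe sets of the related genes named above add to their values. All 5 kept probe sets of TBL1X had positive differences, from 0.62 to 2.22 on the log2 scale, and against PBS replicate 2 they lay between 0.10 and 0.68. All 3 kept probe sets of CAMK2D were negative, at −0.87, −0.77 and −0.43, as were all 3 of TNKS2, at −0.60, −0.89 and −0.25. The second CDH3 probe set stood at −1.49. The second GPC3 probe set stood at −1.61, or −3.13 from PBS replicate 1 alone and −0.09 from the other PBS array. Of the 5 kept EP300 probe sets 4 were negative, including 1 at −0.003, and 1 was at 0.20.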
